A study of Bos taurus with 15 samples.

Results

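Bovine morulae carrying only a sperm genome were compared with morulae carrying both parental genomes. The androgenetic haploid group (library titles beginning TII, replicates 1, 2, 4, 5 and 6) and the diploid group made by intracytoplasmic sperm injection, ICSI (replicates 1 to 5), were taken whole from the labels. They make up 10 of the 15 libraries of the series, 5 in each group, and all gene rows of the deposited table were used. The other 5 libraries were parthenogenetic haploid morulae, which helped to estimate the spread and whose values are set beside those of the main comparison. All samples were labelled as morula-stage embryos of Bos taurus, with genotype Haploid or Diploid. The series title gives WNT signalling and the differentiation of cell fates in haploid androgenetic development as its subject.

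An androgenetic embryo develops from a sperm nucleus in an oocyte whose own nucleus does not take part, so every autosomal gene is present as a single, paternally inherited copy. ICSI places a sperm into an oocyte and gives a biparental diploid embryo. The morula is the compacting ball of cells that precedes the blastocyst. By then bovine embryos have switched on their own genome, and the first choice between trophectoderm and inner cell mass is under way. Imprinted genes are copied from 1 parental allele only, so an embryo with a sperm genome alone lacks the maternal alleles that normally supply some of these transcripts and carries only the paternal ones. In these groups the parental origin of the genome, the ploidy and the procedure that made the embryo change together and cannot be told apart. The labels gave no batch, donor, bull, sex or day and did not say whether a library was 1 embryo or a pool. The p-values therefore measure only the spread between these libraries, which may be technical.

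Total counts per library were 19968077 to 26948011 in ICSI and 21617805 to 28462700 in androgenetic libraries. Libraries that stood apart are named first, because they touch most results. Fewest rows were detected (1 count or more) in androgenetic replicate 6, at 13564, and among ICSI libraries in replicate 5, at 15286, where the other ICSI libraries had 19196 to 19950 and the other androgenetic libraries 16665 to 18633. The mean was 16634 ± 1881 (SD, n = 5) in androgenetic and 18815 ± 1995 in ICSI libraries, a difference within the spread (exact two-sided permutation p = 0.135). With 1 of the 10 libraries left out, the difference ran from -3063 rows without ICSI replicate 5 to -1414 without androgenetic replicate 6. The first of these, the widest, had an exact permutation p = 0.0159. That p is unadjusted and was picked out because its difference was widest, so it does not replace the planned test. Its libraries lacked the lowest ICSI library but kept the lowest androgenetic one. At the smallest library's total, 16389 and 18652 rows would be expected in androgenetic and ICSI libraries, a gap about as large as that between the means. SNURF, an imprinted gene expressed from the paternal allele, was present in every androgenetic and ICSI library and near 0 in parthenogenetic ones, as given further on. The fixed marker lists for trophectoderm, primitive endoderm, oocyte, cumulus and sperm had 0 rows under their symbols, since 27607 of the 31999 rows carry only an Ensembl identifier. The labelled stage and the presence of other cell types could therefore not be checked against these markers. In embryos measured in bulk, fewer cells of a type and less RNA per cell cannot be told apart.

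Androgenetic transcriptomes were more concentrated in a few abundant transcripts than those of ICSI morulae. The 20 highest rows of each library took 14.9%, 17.6%, 12.8%, 18.2% and 15.7% of its counts in androgenetic replicates 1, 2, 4, 5 and 6. In ICSI replicates 1 to 5 they took 10.2%, 10.3%, 9.22%, 9.73% and 12.3%. No androgenetic library reached down to the highest ICSI library, with 12.8% in androgenetic replicate 4 and 12.3% in ICSI replicate 5 as nearest neighbours. The means were 15.9% ± 2.18 (SD, n = 5) and 10.3% ± 1.15, a difference of 5.52 points (exact two-sided permutation p = 0.00794, the smallest that 5 against 5 allows, and 0.0159 adjusted over the 2 library measures). The 100 highest rows took 37.4% ± 6.05 and 24.6% ± 1.96. Parthenogenetic replicate 6 had 17.2% in its 20 and 40.6% in its 100 highest rows, within the androgenetic range. The other parthenogenetic libraries had 10.7% to 11.3% and 24.1% to 27.6%.

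**Figure D1:**
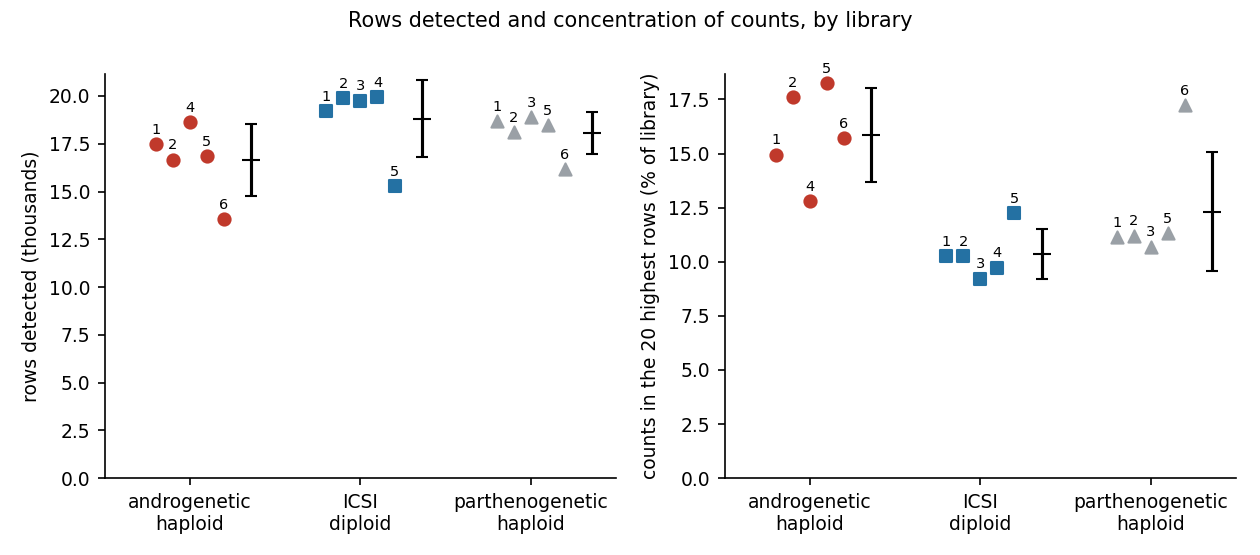
Rows with 1 count or more (left, in units of 1000 rows) and the share of counts in each library's 20 highest rows (right, percent), with 1 point per library labelled by its replicate number and black bars for mean ± SD (n = 5). The 5 androgenetic libraries lie above the 5 ICSI libraries in the right panel, and androgenetic replicate 6 and ICSI replicate 5 lie lowest of their groups in the left panel.

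Of 16375 tested rows, 288 were higher (1.76%) and 173 lower (1.06%) in androgenetic than in ICSI morulae, together 2.82%, by the quasi-likelihood test of edgeR with a Benjamini-Hochberg adjusted p under 0.05. At an unadjusted p under 0.05 stood 19.7% of the rows. DESeq2 called 1252 higher and 735 lower, and limma voom 431 and 445, without an excess of higher calls. The edgeR fit with a replicate block called 0, with 2523 rows at an unadjusted p under 0.05. A count that does not rest on the fitted spread gave 500 rows (3.05%) with all 5 androgenetic libraries above all 5 ICSI libraries and 680 rows (4.15%) with all 5 below. The number of calls changed when 1 library was left out. It was 0 in edgeR fits that lacked replicate 1, 3 or 4 of ICSI, or replicate 1 or 2 of the androgenetic group, where 2721 to 3344 rows kept an unadjusted p under 0.05. Leaving out ICSI replicate 2 gave 1 call, and leaving out androgenetic replicate 5 gave 9 higher and 11 lower rows. More rows were called when androgenetic replicate 4 (585 higher, 492 lower), androgenetic replicate 6 (472 and 272) or parthenogenetic replicate 6 (553 and 356) was absent. Fewer were called when parthenogenetic replicate 5 was absent (152 and 83), and the lower calls numbered 109 and 103 with parthenogenetic replicate 1 or 3 absent. The rows named below were therefore called in at most 10 of the 15 fits that left out 1 library, and this limit holds for each of them. With the number of rows detected as a covariate, 0 rows were called by edgeR (3037 at an unadjusted p under 0.05).

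The direction of the calls changed with abundance when rows were binned by their mean over both groups. Among the 189 rows with a mean of 1000 CPM (counts scaled to the effective size of each library) or more over the 10 libraries, 55 were called higher (29.1%) and 1 lower, and the median log2 fold change was 1.28. Between 100 and 1000 CPM there were 100 higher and 42 lower of 1449 rows, and between 10 and 100 CPM 102 higher and 67 lower of 5182 rows. Between 1 and 10 CPM 31 were higher and 39 lower of 7235 rows. Under 1 CPM 0 of 2320 rows were called higher by edgeR and 24 lower, while the 2987 rows with an ICSI mean under 1 CPM held 29 higher and 10 lower. A mean over both groups places rows that are high in androgenetic libraries into higher bins. Binned instead by the ICSI mean alone, a choice made after the data were seen, 12 of the 114 rows at 1000 CPM or more were higher (10.5%) and 3 lower, with a median of 0.25. Higher calls outnumbered lower calls in every bin of the ICSI mean, with 70 and 45 from 1 to 10 CPM. They numbered 67 and 54 from 10 to 100 CPM, and 110 and 61 from 100 to 1000 CPM. On that binning the direction thus did not change, and the excess of higher calls among abundant rows was smaller. The rows called higher held 22.6% ± 8.39 of all counts in androgenetic and 7.50% ± 0.840 in ICSI libraries. Those called lower held 0.540% ± 0.169 and 2.64% ± 0.441. These shares describe rows chosen by this same contrast and carry no test.

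**Figure D2:**
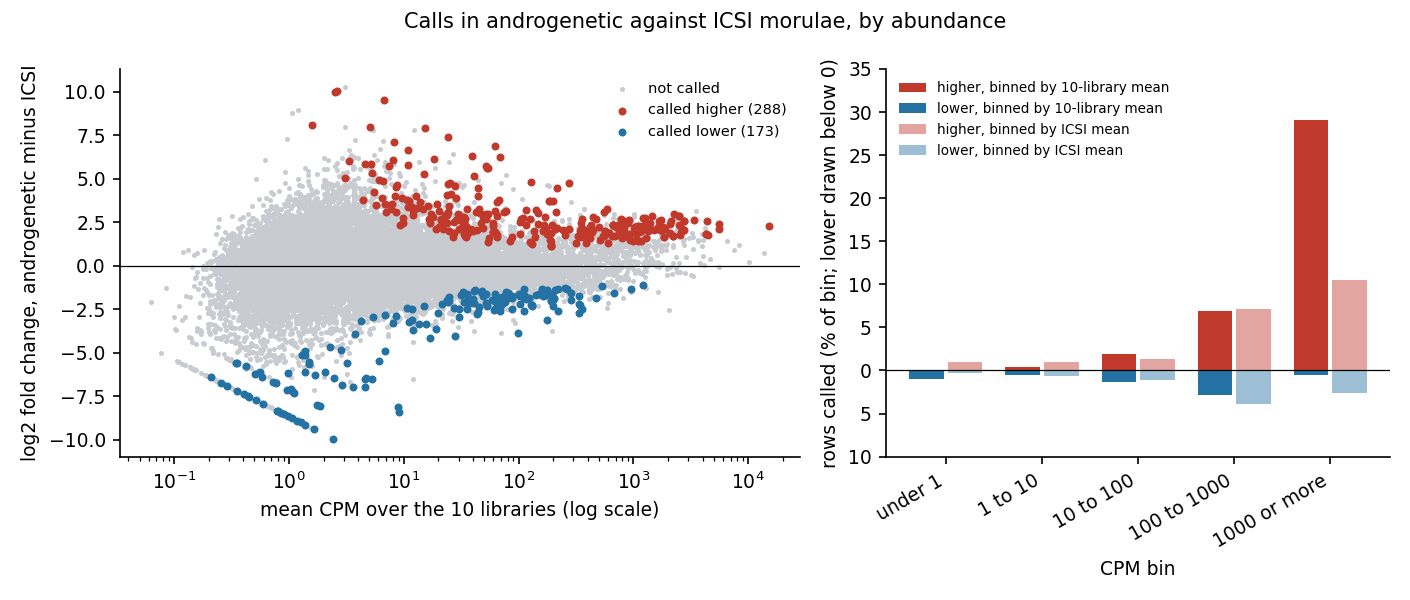
Left, log2 fold change (androgenetic minus ICSI) of every tested row against its mean CPM over the 10 libraries on a log axis, with the 288 rows called higher in red and the 173 called lower in blue. Right, percent of rows called in each CPM bin, higher above and lower below 0, for bins by the mean over both groups (dark) and by the ICSI mean (pale): at 1000 CPM or more 29.1% were higher on the first binning and 10.5% on the second.

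Among genes with a symbol, 13 of 610 tested rows were called higher and 7 lower, which is 2.13% and 1.15% against 1.76% and 1.06% over all rows. The shares lay near those of all rows. CPM values are listed below in the order of androgenetic replicates 1, 2, 4, 5 and 6 and of ICSI replicates 1 to 5, and fold changes come from the edgeR fit. NWD2, which encodes a NACHT and WD repeat protein, rose most. It stood at 84.5, 77.3, 19.98, 27.7 and 23.2 CPM in androgenetic and at 1.52, 1.02, 1.44, 1.09 and 3.79 CPM in ICSI libraries. The lowest androgenetic library was thus more than any ICSI library, with replicates 1 and 2 highest. Its log2 fold change was 4.72 ± 0.83 (SE; edgeR adjusted p = 0.0270), the lowest adjusted p among the 13 genes with a symbol called higher. In RefSeq NWD2 overlaps LOC101906734.

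TNIK encodes a kinase that binds TCF factors and supports transcription driven by WNT. Its counts stood at 2023, 4565, 1046, 3182 and 1039.6 CPM in androgenetic libraries. The ICSI libraries had 258, 430.4, 245, 379.9 and 855 CPM. The groups did not overlap, although ICSI replicate 5 came close to androgenetic replicates 4 and 6. The log2 fold change was 2.45 ± 0.57 (SE; edgeR adjusted p = 0.0369). Parthenogenetic replicates 6 and 2 had 1935 and 903 CPM of TNIK, and the other parthenogenetic libraries 351 to 472 CPM. For androgenetic minus parthenogenetic morulae it was 1.54 ± 0.55 and not called (edgeR adjusted p = 0.136). In the RefSeq table TNIK overlaps a gene named TMSB4, so its counts may include reads of both. The list of WNT effectors had 3 tested members, of which TNIK was higher (background 1.76%), and the other members were not called. PYGO2, a chromatin-binding coactivator of β-catenin, lay between 0 and 3.07 CPM in androgenetic and between 0.299 and 6.22 CPM in ICSI libraries (-0.81 ± 1.38, edgeR adjusted p = 0.799, and 0.79 without ICSI replicate 5). TLE1, a Groucho family corepressor of TCF factors, was under 1 CPM in 4 androgenetic libraries and at 23.95 CPM in replicate 2, against 4.81 to 11.7 CPM in ICSI libraries. For TLE1 the log2 fold change was -0.45 ± 1.20 (edgeR adjusted p = 0.878), and -4.19 without androgenetic replicate 2. No ligand or receptor of the pathway was tested under its symbol.

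OST4, the smallest subunit of the oligosaccharyltransferase that adds N-glycans in the endoplasmic reticulum, stood at 1389, 2526, 679, 2788 and 1601 CPM in androgenetic and at 434, 458, 388, 372 and 648 CPM in ICSI libraries. All androgenetic libraries were above all ICSI libraries, with androgenetic replicate 4 lowest (1.97 ± 0.45, edgeR adjusted p = 0.0369). Parthenogenetic replicate 6 had 1500 CPM of OST4, and the other parthenogenetic libraries 350 to 596 CPM. For androgenetic minus parthenogenetic morulae OST4 was not called (1.41 ± 0.44, edgeR adjusted p = 0.0951). RefSeq places OST4 within a stretch shared with AGBL5. LGALS7B, a galectin that binds β-galactosides, had 184, 26.5, 86.0, 122 and 27.4 CPM against 6.42, 10.9, 16.6, 26.3 and 8.56 CPM. The groups were separated only narrowly, by androgenetic replicate 2 and ICSI replicate 4 (2.70 ± 0.62, edgeR adjusted p = 0.0369). B3GALT1, a galactosyltransferase that builds type 1 sugar chains, ranged from 3.12 to 117 CPM in androgenetic and from 3.35 to 8.73 CPM in ICSI libraries. It was called (3.09 ± 0.76, edgeR adjusted p = 0.0413) although androgenetic replicate 4 lay below every ICSI library, and without androgenetic replicate 5, its highest library, the log2 fold change was 2.30. In RefSeq B3GALT1 overlaps the tRNA gene TRNAV-UAC.

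RBIS (C14H8orf59), a ribosomal biogenesis factor, stood at 514, 1377, 251, 867 and 1463 CPM in androgenetic and at 149, 231, 186, 164 and 391 CPM in ICSI libraries. Only androgenetic replicate 4 fell into the ICSI range (1.996 ± 0.50, edgeR adjusted p = 0.0416). RAMAC (RAMMET), the activating subunit of the methyltransferase that completes the mRNA cap, had 638, 639.8, 510.4, 611 and 2390.3 CPM against 191, 157, 172, 196 and 561 CPM. Androgenetic replicate 6 was far above its group and ICSI replicate 5 above its own (1.91 ± 0.51, edgeR adjusted p = 0.0498). Both genes shared nearly all their counts with an Ensembl row, so each may stand in the table under another name as well. The glycine tRNA gene TRNAG-CCC ranged from 4.44 to 35.0 CPM in androgenetic and from 1.44 to 5.46 CPM in ICSI libraries (2.44 ± 0.64, edgeR adjusted p = 0.0488). It was 1 of 16 tRNA rows tested (background 1.76% higher). Of the 16, 15 had a positive log2 fold change (93.8%), against 49.8% of all rows and 62.7% of the rows that carry no Ensembl identifier. Library preparation selected poly(A) RNA and tRNA genes recur in many copies, so these counts are uncertain as tRNA levels.

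Histones package DNA, and the main replication-dependent genes are transcribed in S phase and end without a poly(A) tail, so their counts in polyadenylated libraries need not follow all histone RNA. Some histone rows rose in androgenetic libraries. Of 13 tested histone rows 4 were called higher (background 1.76%) and 0 lower, 11 had a positive log2 fold change, and the median was 1.86 against -0.01 over all rows. The H4 gene H4C14 (LOC516742) stood at 4008, 1949, 1241, 1583 and 2512 CPM in androgenetic and at 736, 550.1, 297, 408 and 308 CPM in ICSI libraries. The groups did not overlap (2.30 ± 0.53, edgeR adjusted p = 0.0369). Parthenogenetic replicates 2 and 6 had 2551 and 1591 CPM of H4C14, within the androgenetic range, and the other parthenogenetic libraries 290 to 998 CPM. The H2A rows HIST1H2AK and HIST2H2AA4 had nearly identical counts in every library, with each other and with 1 Ensembl row, so reads of near-identical copies cannot be assigned among them. In each of the 10 libraries H4C14 had at least the summed counts of these H2A rows and at most 1.12 times that sum. The 3 rows cannot be taken as separate signals, and the 4 calls rest on fewer independent measurements than their number, as does any reading of that count against the background. HIST1H2AK had 1996, 975, 603, 785 and 1213 CPM against 346, 265, 143, 197 and 138 CPM (2.35 ± 0.54, edgeR adjusted p = 0.0361). The H4 gene H4C1 (LOC617905) was lower in CPM, and its groups lay closer together but did not overlap, at 55.4, 60.5, 50.8, 28.0 and 88.2 CPM against 21.5, 16.6, 13.5, 11.1 and 15.3 CPM (1.86 ± 0.38, edgeR adjusted p = 0.0342). H4C19 (LOC518961) was called as well (2.78 ± 0.69, edgeR adjusted p = 0.0416) outside that list, with androgenetic replicate 5 at 13.5 CPM inside the ICSI range of 2.06 to 17.2 CPM.

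Of the 13 histone rows 9 were not called. HIST1H1C and HIST1H1D overlapped between the groups. The linker histone rows HIST1H1C (H1-2) and HIST1H1D (H1-3) had log2 fold changes of 1.45 ± 0.47 and 1.86 ± 0.91 (edgeR adjusted p = 0.0916 and 0.267), and that of HIST1H1D was 1.21 without androgenetic replicate 4. H2AFX (H2AX), the variant phosphorylated at DNA breaks, had a negative value, at 0.596 to 3.26 CPM against 3.65 to 6.82 CPM without overlap (-1.65 ± 0.73, edgeR adjusted p = 0.218 but called lower by DESeq2). HIST1H2AJ was the other row with a negative value (-0.12 ± 1.22, edgeR adjusted p = 0.970), which turned positive under several alternatives. The family medians per library, as log2(CPM + 1) minus the ICSI mean, were 1.57, 1.42, 1.52, 0.83 and 2.11 in androgenetic and 0.52, 0.37, -0.23, -0.34 and -0.51 in ICSI libraries. Every androgenetic library was above every ICSI library in that median. The same median reached 1.12 in parthenogenetic replicate 3 and 0.74 in replicate 6, and the family's median log2 fold change for parthenogenetic minus ICSI morulae was 0.74 with 0 of 13 called. The androgenetic and parthenogenetic comparisons share the ICSI libraries. Between the haploid groups the median over these rows was 0.97 with 0 called by edgeR (background 0.916% higher), so a difference between androgenetic and parthenogenetic morulae in histone counts was not shown.

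**Figure D3:**
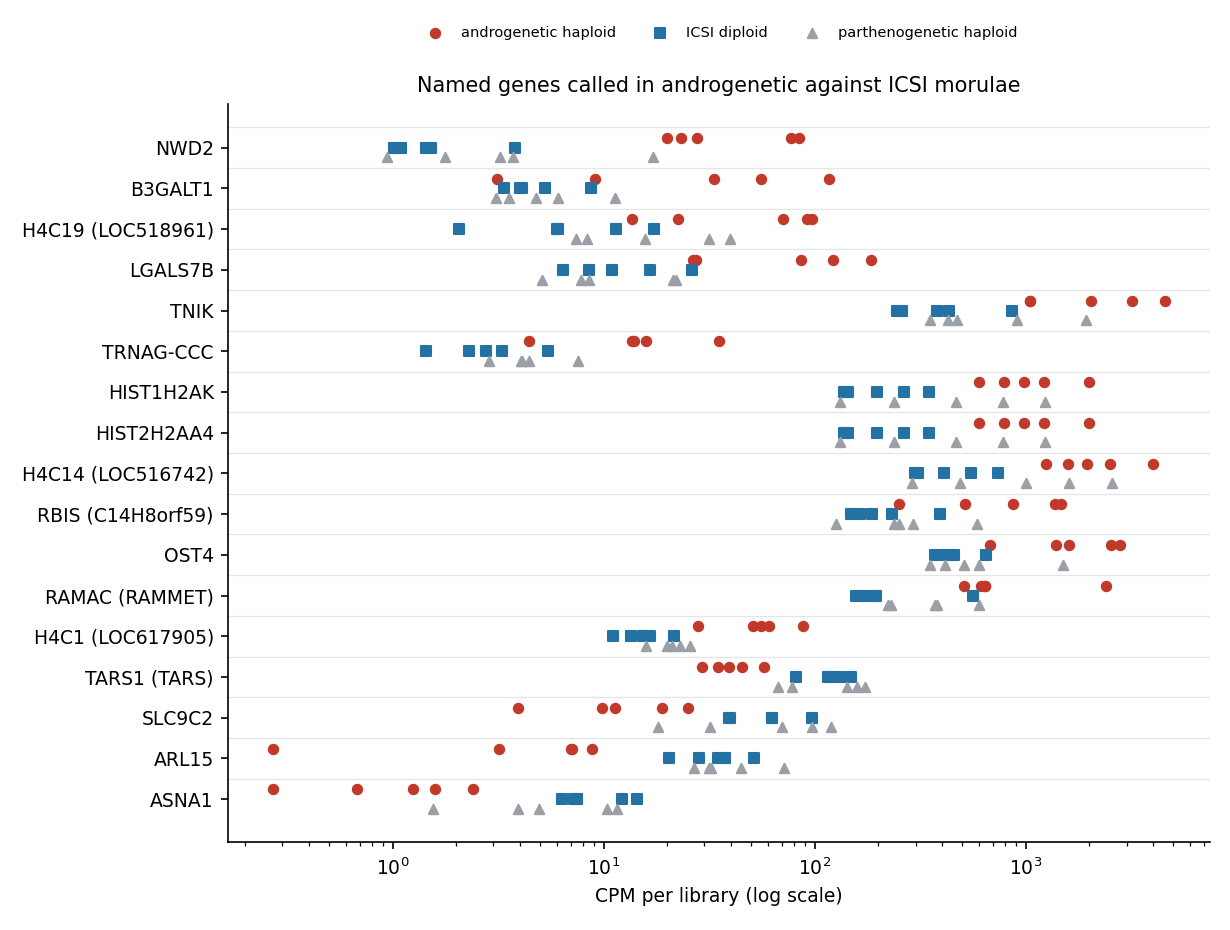
CPM of the 17 genes with a symbol named by rule as rises or falls, 1 point per library on a log axis. Androgenetic libraries are drawn as red circles, ICSI libraries as blue squares and parthenogenetic libraries as grey triangles. In TNIK, OST4 and H4C14 all red circles lie to the right of all blue squares, and in ASNA1, ARL15, SLC9C2 and TARS1 all lie to the left.

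Falls by rule comprised 4 genes with a symbol and at least 5 CPM, and in all 4 the groups did not overlap. ASNA1, the ATPase that delivers tail-anchored proteins to the endoplasmic reticulum, stood at 1.58, 0.677, 2.41, 1.25 and 0.271 CPM in androgenetic and at 7.46, 6.33, 12.2, 14.4 and 7.20 CPM in ICSI libraries (-2.94 ± 0.77, edgeR adjusted p = 0.0483). Its membrane receptor subunit WRB (GET1) lay at 7.48 to 32.4 CPM against 33.4 to 59.2 CPM, also without overlap, and was not called (-1.04 ± 0.57, edgeR adjusted p = 0.332). The list of endoplasmic reticulum insertion and N-glycosylation genes thus had OST4 higher, ASNA1 lower and WRB not called among its 3 tested members (background 1.76% higher and 1.06% lower). ARL15, a small GTPase of the ARF-like family, had 3.20, 7.08, 6.96, 8.79 and 0.271 CPM against 34.8, 37.6, 51.3, 28.2 and 20.4 CPM. The lowest ICSI library was more than all androgenetic ones (-2.71 ± 0.63, edgeR adjusted p = 0.0369). In RefSeq ARL15 overlaps LOC132343221. SLC9C2, of the sodium/proton exchanger family, lay at 3.92 to 25.0 CPM against 39.0 to 96.7 CPM (-2.13 ± 0.55, edgeR adjusted p = 0.0483) and overlaps PRDX6 and ANKRD45 in RefSeq.

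The remaining gene was TARS (TARS1), the enzyme that loads threonine onto its tRNA. It stood at 57.5, 34.7, 45.1, 39.1 and 29.2 CPM in androgenetic and at 149, 122, 115, 131 and 81.9 CPM in ICSI libraries (-1.54 ± 0.35, edgeR adjusted p = 0.0360). In RefSeq its gene overlaps LOC132343241. TARS was the only member called by edgeR among 18 tested cytosolic aminoacyl-tRNA synthetases, 5.56% of them against a background of 1.06% of rows called lower. DESeq2 and limma voom each called 5 of the 18 lower. In 15 of 18 genes the log2 fold change was negative, the median was -1.13 against -0.01 over all rows, and 5 genes (AARS, EPRS, SARS, TARS and WARS) had all androgenetic below all ICSI libraries against a background of 4.15%. The family medians per library, as log2(CPM + 1) minus the ICSI mean, were -0.70, -0.85, -0.87, -1.53 and -1.48 in androgenetic and 0.04, 0.18, 0.03, 0.09 and -0.49 in ICSI libraries. ICSI replicate 5 came nearest to the androgenetic libraries. With rows detected as a covariate the median log2 fold change was -0.78. Like RBIS and RAMAC, TARS and many other synthetases, EPRS, KARS, RARS and HARS among them, shared nearly all their counts with an Ensembl row. Such genes were tested under both rows, and counts and shares over all rows include both.

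Among synthetases that missed the threshold, CARS for cysteine had 2.68, 1.97, 4.63, 1.84 and 5.64 CPM against 10.5, 22.2, 15.6, 19.1 and 4.12 CPM (-2.09 ± 0.59, edgeR adjusted p = 0.0576). Only ICSI replicate 5 reached into the androgenetic range. Of the 15 edgeR fits that left out 1 library, 4 called CARS, 2 RARS for arginine and 1 DARS for aspartate. HARS for histidine was nearly absent in androgenetic replicates 5 and 6, at 0.653 and 0.0542 CPM, while replicate 2 at 28.8 CPM lay within the ICSI range of 27.1 to 46.6 CPM (-1.95 ± 0.87, edgeR adjusted p = 0.221, and -2.89 without androgenetic replicate 2). EPRS, which serves glutamate and proline, had 57.7, 37.6, 53.2, 31.1 and 5.69 CPM against 89.3, 103, 99.0, 112 and 78.0 CPM (-1.38 ± 0.44, edgeR adjusted p = 0.0845). Positive values were found for MARS (0.80 ± 0.43), QARS (0.18 ± 0.47) and YARS (0.12 ± 0.41), none of them called, and MARS overlaps DDIT3 in RefSeq. CEBPG, the tested member of the amino acid stress response list, was not called at 0.68 (edgeR adjusted p = 0.477). Set side by side, the synthetase median was -0.06 for parthenogenetic minus ICSI and -1.05 for androgenetic minus parthenogenetic morulae, where 1 of 18 was called lower (background 0.837%). Over all rows, 12 were called lower in the comparison of parthenogenetic with ICSI morulae (0.0733%). For TARS the first of these was 0.04, not called, and the second -1.59 (edgeR adjusted p = 0.0334), so the haploid groups differed.

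**Figure D4:**
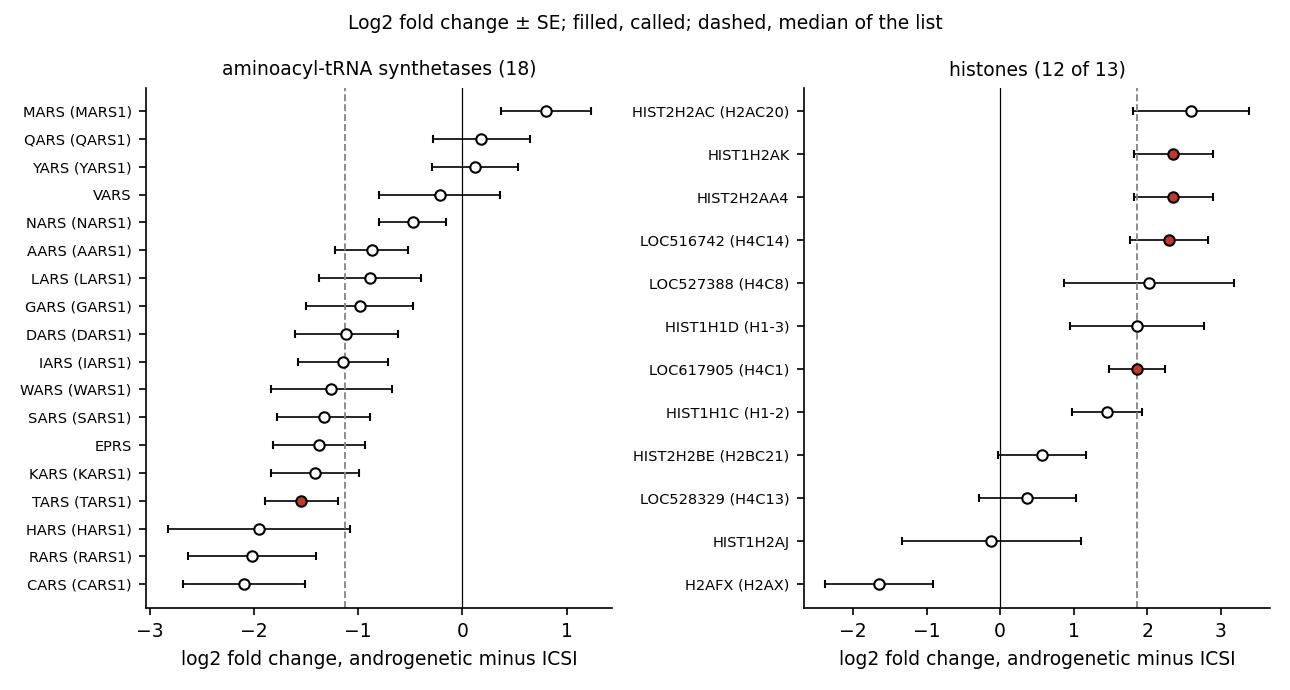
Log2 fold change (androgenetic minus ICSI) with its SE as bars for the 18 tested cytosolic aminoacyl-tRNA synthetases (left) and 12 of the 13 tested histone rows (right), with filled points called in edgeR and dashed lines at the medians of the whole lists, -1.13 and 1.86. Of the synthetases 15 lie left of 0, and of the histone rows drawn 10 lie right of 0.

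Some transcripts were not detected at all in androgenetic morulae. The rows that follow lie under 5 CPM and were chosen after their values were seen. ZBED1, which encodes a BED-type zinc finger protein, had 0 counts in all 5 androgenetic libraries, while the ICSI libraries held 120 counts, at 1.41, 0.716, 0.419, 0.749 and 1.17 CPM. Taking 3 counts over the androgenetic group as the limit that 0 allows, it was at least 28.8-fold lower (edgeR adjusted p = 0.0347). The limit covers counting error only, and ZBED1 overlaps DHRSX in RefSeq. ZFP37, a zinc finger gene, also had 0 counts in all 5 androgenetic libraries and was at least 67.8-fold lower (edgeR adjusted p = 0.0475), but most of its ICSI counts came from replicate 5, at 11.1 CPM against 0.0754 to 0.624 CPM in the others. LETM2, a relative of a mitochondrial ion exchanger gene, had 1 count over the androgenetic and 87 over the ICSI libraries (edgeR adjusted p = 0.0489). The row LOC100847999, a miscellaneous RNA that overlaps PLS1, had 5 counts in androgenetic and 2636 in ICSI libraries (edgeR adjusted p = 0.0270), yet ICSI replicate 5 held none. Of the 173 rows called lower, 24 lay under 1 CPM.

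Long non-coding RNAs (lncRNAs) are transcripts without a known protein, some of which act on neighbouring genes. Rows that RefSeq lists as lncRNA were looked at as a class after the data were seen. Of 826 such rows tested, 25 were called higher, which is 3.03% against the background of 1.76%, and 2 were called lower (0.242% against 1.06%). Rows named by LOC number, to which most of this class belongs, shared much of that pattern, with 2.49% higher, 0.249% lower, a median log2 fold change of 0.58 and 64.1% positive values, against a median of -0.08 in Ensembl rows. A difference between lncRNA and other LOC rows was not tested. In 47 lncRNA rows all androgenetic libraries were above all ICSI libraries (5.69% against 3.05%) and in 14 all were below (1.69% against 4.15%). The median log2 fold change of the class was 0.83, and 568 of 826 values were positive. With limma voom it was 0.06, where the median of all rows moved to -0.54. As medians of log2(CPM + 1) minus the ICSI mean, the class stood at 0.04, 0.14, 0.25, 0.21 and -0.27 in androgenetic and at -0.05, 0.03, -0.07, 0.03 and -0.20 in ICSI libraries. Androgenetic replicate 6, with the fewest rows detected, was thus lowest of all 10. For parthenogenetic minus ICSI morulae the median log2 fold change of these rows was 0.09, and for androgenetic minus parthenogenetic morulae it was 0.64.

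The lncRNA rows named here were chosen after their values were seen: the 9 largest rises among called rows of at least 5 CPM, the most abundant called row, both rows that fell, and LOC101902700. LOC107131253 rose most of them, at 115, 46.2, 8.65, 9.03 and 60.6 CPM in androgenetic and at 0.223, 0.377, 0.419, 0.0312 and 0.374 CPM in ICSI libraries (7.38 ± 1.52, edgeR adjusted p = 0.0347). In the RefSeq order 1 locus separates it from LOC100848634, which had 199, 61.3, 29.8, 36.9 and 61.4 CPM against 0.0371, 2.41, 0, 0.749 and 1.73 CPM (6.30 ± 1.67, edgeR adjusted p = 0.0498). In both rows androgenetic replicate 1 was highest and the groups were far apart, and without it the log2 fold changes were 6.75 and 5.58. Without ICSI replicate 2 that of LOC100848634 was 6.95. LOC112449034, which overlaps ENOX1, ranged from 1.96 to 33.1 CPM against 0 to 0.655 CPM (5.73 ± 1.34, edgeR adjusted p = 0.0369). LOC112446006 ranged from 14.4 to 65.5 CPM against 0 to 2.15 CPM (5.25 ± 1.09, edgeR adjusted p = 0.0347). In neither did the groups overlap, and the values were 6.39 for LOC112449034 without ICSI replicate 5 and 6.13 for LOC112446006 without ICSI replicate 3. LOC101902700, under 5 CPM, had 476 counts in androgenetic libraries, none of them in replicate 6, and 0 in ICSI libraries (edgeR adjusted p = 0.0463). Against the limit of 3 counts over the ICSI group it was at least 221-fold higher. Replicate 5 held 215 of those counts, and without it the fitted log2 fold change was 9.45 in place of 10.06.

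LOC101904579, whose next gene in RefSeq is GATA6, a factor of primitive endoderm, had 31.9, 26.9, 5.64, 30.1 and 26.0 CPM against 0.520, 1.09, 0.449, 0.624 and 4.77 CPM (4.02 ± 1.05, edgeR adjusted p = 0.0486). Androgenetic replicate 4 and ICSI replicate 5 each stood apart from their groups towards the other, and without ICSI replicate 5 the log2 fold change was 5.21. LOC100847951, next to the SOX family gene SOX4, had 6.94, 9.42, 3.84, 9.68 and 49.6 CPM against 0.408, 1.06, 0.718, 1.12 and 1.68 CPM (3.99 ± 0.83, edgeR adjusted p = 0.0347), and 3.01 without androgenetic replicate 6. GATA6 and SOX4 themselves carry no symbol among the tested rows. LOC112442635, LOC107132944 and LOC112446481 rose by 4.51, 3.904 and 3.86 on the log2 scale without overlap between the groups, and LOC112446481 by 4.56 without ICSI replicate 2. The most abundant called lncRNA row, LOC101904529, stood at 2106, 3549, 1932, 2357 and 4111 CPM against 562, 419.7, 538, 357 and 1078 CPM (2.25 ± 0.51, edgeR adjusted p = 0.0360). Both lncRNA rows called lower were separated as well. LOC107132417 lay at 3.99, 1.97, 5.34, 1.84 and 0.867 CPM against 29.2, 22.2, 38.4, 31.9 and 19.5 CPM (-3.33 ± 0.55, edgeR adjusted p = 0.0266), and LOC101902994, which overlaps ENPEP, at 40.9 to 135 CPM against 219 to 414 CPM (-1.94 ± 0.42, edgeR adjusted p = 0.0347).

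**Figure D5:**
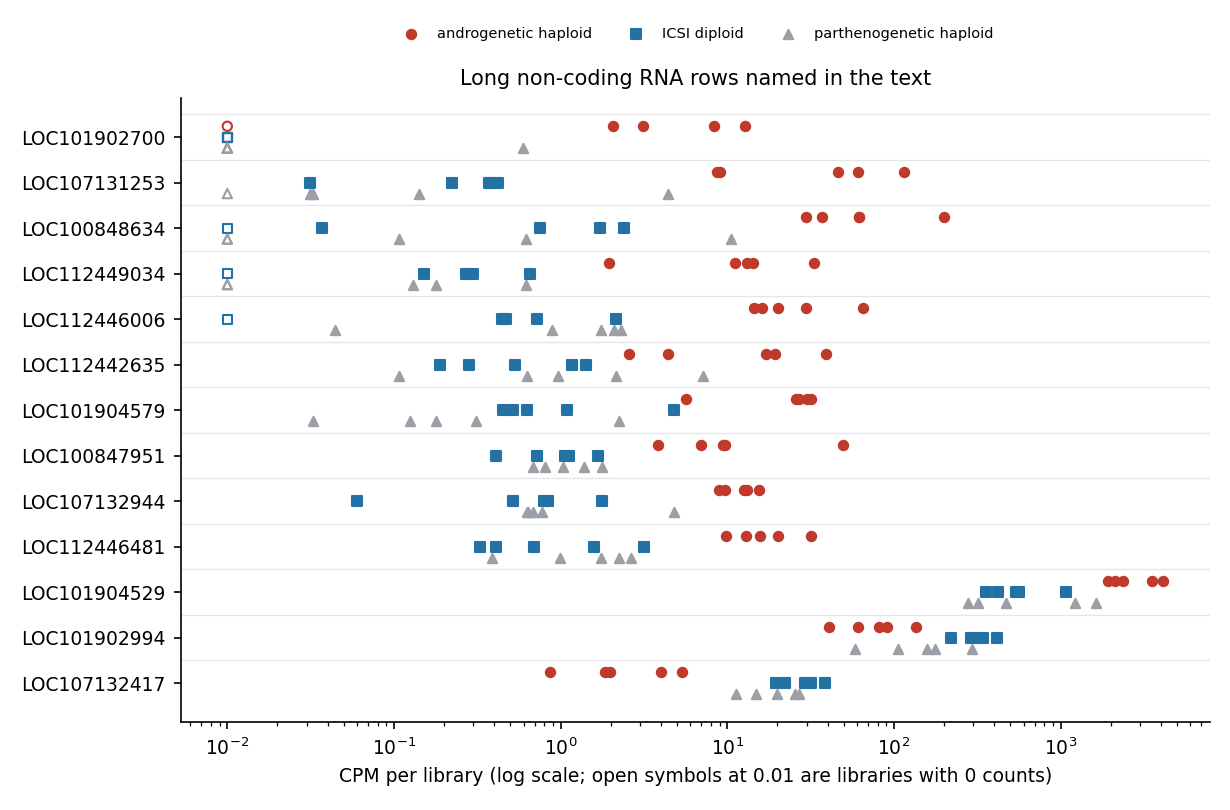
CPM of 13 called lncRNA rows, 1 point per library on a log axis, with androgenetic libraries as red circles, ICSI libraries as blue squares, parthenogenetic libraries as grey triangles and open symbols at 0.01 for libraries with 0 counts. Apart from LOC101902700, where androgenetic replicate 6 held no count, red circles and blue squares are separated in every row, with red below blue in LOC101902994 and LOC107132417 and above in the others.

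Abundant protein-coding loci without a symbol rose too, and were chosen after their values were seen. LOC100297099 stood at 4264, 4649, 1257, 5099 and 6686 CPM in androgenetic and at 268, 451, 331, 881 and 1061 CPM in ICSI libraries (2.88 ± 0.73, edgeR adjusted p = 0.0459). LOC100297779 overlaps it and had nearly the same counts, and LOC112441509, which also overlaps it, stood at 2401, 2816, 842, 3407 and 3193 CPM against 119.9, 252.5, 163, 527 and 695 CPM. The 3 rows cannot be taken as separate genes. In all 3 androgenetic replicate 4 was lowest of its group and ICSI replicate 5 highest of its own. Parthenogenetic replicate 6 had 4905 CPM in LOC100297099, against 223 to 796 CPM in the other parthenogenetic libraries.

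Among rows known only by an Ensembl identifier, 2 each way are given by rule. ENSBTAG00000005045 stood at 76.0, 45.5, 27.2, 29.6 and 49.4 CPM in androgenetic and at 3.53, 3.01, 2.60, 3.40 and 8.65 CPM in ICSI libraries (3.43 ± 0.57, edgeR adjusted p = 0.0266). In parthenogenetic libraries it averaged 0.333 ± 0.199 CPM, below ICSI (-3.65, edgeR adjusted p = 0.0148) and below androgenetic libraries (edgeR adjusted p = 2.3e-05). The 3 groups were thus in the order androgenetic, ICSI, parthenogenetic, with each step past the threshold. ENSBTAG00000017752 had 137, 271, 54.3, 479 and 300.4 CPM against 10.4, 4.71, 5.89, 7.53 and 14.9 CPM (4.84 ± 0.81, edgeR adjusted p = 0.0266). ENSBTAG00000019445 fell from 80.2, 20.5, 60.7, 67.6 and 33.8 CPM in ICSI to 4.92, 1.54, 2.26, 4.22 and 2.87 CPM in androgenetic libraries (-4.05 ± 0.61, edgeR adjusted p = 0.0266), and was called in 10 of 15 fits that left out 1 library. ENSBTAG00000014335 had 1 count over the androgenetic and 524 over the ICSI libraries (edgeR adjusted p = 0.0266).

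Imprinted and lineage genes with a symbol were not called. SNURF, which shares its transcript with SNRPN, stood at 189.9, 174, 224, 161 and 316 CPM in androgenetic and at 104, 94.0, 79.1, 123 and 201 CPM in ICSI libraries. ICSI replicate 5 reached into the androgenetic range, and the log2 fold change was 0.82 ± 0.57 (edgeR adjusted p = 0.454). In parthenogenetic libraries SNURF averaged 0.701 ± 0.653 CPM. The paternally expressed genes USP29 and MKRN3 were low and scattered, at 0 to 4.08 and 0 to 11.1 CPM in androgenetic against 0.389 to 1.92 and 0 to 3.11 CPM in ICSI libraries (0.77 ± 1.17 and 1.63 ± 1.33, edgeR adjusted p = 0.771 and 0.536). USP29 was 0.15 without androgenetic replicate 1, and MKRN3 1.02 without androgenetic replicate 5. MEG8, a maternally expressed lncRNA, had counts in androgenetic replicate 4 alone of its group, at 2.93 CPM, and reached 0.269 CPM in ICSI libraries (2.15 ± 1.72, edgeR adjusted p = 0.525, and -4.77 without androgenetic replicate 4). XIST, the RNA that coats the inactive X chromosome, had 5.36, 5.54, 13.9, 22.0 and 22.7 CPM against 1.15, 20.5, 37.8, 21.4 and 42.4 CPM (-0.83 ± 0.67, edgeR adjusted p = 0.530). SOX2, a pluripotency factor, lay at 0.163 to 6.53 CPM against 1.08 to 3.62 CPM (-0.05 ± 0.88, edgeR adjusted p = 0.984). The HIPPO pathway targets CYR61 (CCN1) and CTGF (CCN2) had -0.72 ± 0.96 and -0.15 ± 0.47 (edgeR adjusted p = 0.730 and 0.899). In the low genes USP29, MKRN3, MEG8, SOX2 and CYR61, with standard errors of 0.88 to 1.72, changes of several-fold could go uncalled. SNURF, XIST and CTGF had smaller standard errors, and smaller changes in them may have been missed too.

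The other fixed families gave no call in edgeR with all libraries. The PRD-like homeobox genes ARGFX and DUXA, whose relatives are active around genome activation, had 645 to 3923 and 86.4 to 6423 CPM in androgenetic libraries, with the highest value of each in replicate 6. In ICSI libraries DUXA lay at 86.6 to 634 CPM, highest in replicate 5. The log2 fold changes were 1.49 ± 0.50 and 2.69 ± 1.03 (edgeR adjusted p = 0.100 and 0.147), and that of DUXA was -0.06 without androgenetic replicate 6. Of 9 tested septins, which form GTPase filaments at the cell cortex, 0 were called in edgeR, 7 had a negative log2 fold change, and the median was -0.61. SEPT8 was the member with all androgenetic below all ICSI libraries, at 0 to 1.27 CPM against 2.26 to 8.23 CPM (-3.18 ± 1.21, edgeR adjusted p = 0.145, and -4.00 without androgenetic replicate 1). Of 9 tested MARCH ubiquitin ligases 0 were called in edgeR and the median was 0.04, with its sign depending on the fit. MARCH1 (MARCHF1), which removes surface proteins, was the member with all androgenetic above all ICSI libraries, at 12.6 to 39.3 CPM against 0.891 to 11.5 CPM (2.30 ± 0.74, edgeR adjusted p = 0.0846, and 3.005, past the threshold, without ICSI replicate 5), and DESeq2 and limma voom called it. In the lists of spindle genes (MAD2L1 and CNTRL) and of DNA damage and apoptosis genes (BIK and H2AFX) 0 members were called in edgeR.

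The same libraries often lay nearest to the other group. Among the 288 rows called higher, androgenetic replicate 4 was the lowest androgenetic library in 204 (70.8%) and ICSI replicate 5 the highest ICSI library in 156 (54.2%). Among the 173 rows called lower this was less marked. The highest androgenetic library was replicate 4 in 64 (37.0%) and replicate 1 in 45 (26.0%). The lowest ICSI library was replicate 5 in 78 (45.1%) and replicate 2 in 63 (36.4%). The median of the rows called higher, as log2(CPM + 1) minus the ICSI mean, was 2.23, 2.70, 1.10, 2.63 and 2.28 in androgenetic replicates 1, 2, 4, 5 and 6. It was 1.43 in parthenogenetic replicate 6 and 0.61 in replicate 2, and between -0.21 and 0.01 in the other parthenogenetic libraries. Parthenogenetic replicate 6 had the fewest rows detected of its group, at 16154, and the part of such library differences in the called rows was not tested. Androgenetic replicate 4 correlated best with ICSI replicate 4 over all tested rows (Spearman's rho 0.846) and reached 0.792 at most within its own group. Androgenetic libraries were also less alike, with a median SD of log2(CPM + 1) over rows of 1.02, against 0.577 in ICSI libraries. These were 0.863 without androgenetic replicate 6 and 0.412 without ICSI replicate 5. Of the 288 rows called higher, 201 (69.8%) had no overlap between the groups, and of the 173 called lower, 142 (82.1%) had none. Over all tested rows, 3.05% lay above and 4.15% below without overlap. The called rows were chosen by this same contrast, so their high shares follow from the choice and carry no test.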

How the data were processed

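The 15 libraries were made from polyadenylated RNA with the SMART-Seq HT and Nextera XT kits, per the labels' protocols. The submitters' processing notes name Trim Galore, cutadapt, STAR and featureCounts without versions. For genome build, annotation and use of strand the sources give nothing (not given in the sources used here), so no coordinates are printed, and overlapping, antisense and near-identical genes cannot be told apart. The deposited table holds raw counts per row and library as whole numbers, which the authors had not normalized. Its 31999 rows comprise 27607 Ensembl, 3615 LOC and 777 symbol rows, and Ensembl rows held 92.9% of counts. Of 2573 tested LOC or symbol rows 1811 matched the RefSeq table of ARS-UCD2.0, used for names, gene type and neighbours only.

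Counts were tested with edgeR 4.0.16 (R 4.3.3): scaling factors by TMM, the default low-count filter, and quasi-likelihood tests in 1 model of the 3 groups (15 libraries). Adjusted p-values follow Benjamini and Hochberg over the 16375 tested rows. The common biological coefficient of variation was 1.02. Standard errors were derived from the log2 fold change and its F statistic. CPM are scaled by the TMM factors, and medians per library use log2(CPM + 1). On simulated counts (15652 rows) the test recovered 7% of rows changed 4-fold and 52% of rows changed 16-fold, and 1.67% of its calls were false. There 100 rows were changed at each fold, rows were drawn independently, and all groups had the same spread. The measured groups differed in spread, so these shares need not hold for the measured calls. Library measures were compared by exact permutation over 252 arrangements.

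Genes named by rule were the called symbol rows of at least 5 CPM, up to 15 each way, called list members, a fixed set of imprinted, lineage, WNT and HIPPO genes, the synthetases, and 2 Ensembl rows each way. Of 23 gene lists, medians are given for those with 5 or more tested members. In the histone list 1 tested row is counted but not reported here on its own. Members and lists were chosen with earlier results of these data known. Alternatives were DESeq2 1.42.0 and limma voom (limma 3.58.1), other scaling factors and filters, a robust fit, a fit of the 10 libraries alone, a replicate block, rows detected as a covariate, and leaving out libraries. Shares of counts by chromosome were not analysed, since 11.1% of tested rows matched a RefSeq entry where 80% was required.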

Additional observations from a re-analysis of the deposited data

Results flagged for a closer look

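In groups of 5 libraries a value was singled out when 1 library lay far from the other 4. This held in 25 of the 166 groups examined (15.1%). The cut-off used gives about 5% for independent, normally distributed values. CPM are skewed and the groups share libraries, so 15.1% cannot be read as an excess over that share. ICSI replicate 5 had the fewest rows detected of its group, at 15286. It also stood above the other ICSI libraries in NWD2 (3.79 CPM), RAMAC (561 CPM), PYGO2 (6.22 CPM), MARS (72.5 CPM), RARS (854 CPM), ENSBTAG00000005045 (8.65 CPM), ZFP37 (11.1 CPM), LOC101904579 (4.77 CPM), LOC101904529 (1078 CPM), DUXA (634 CPM) and the histone row H4C13 (871 CPM). The other ICSI value was TLE1 in replicate 2, at 11.7 CPM.

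Androgenetic replicate 6 stood above its group in RAMAC (2390.3 CPM), DARS (179 CPM), RARS (259 CPM), LOC100847951 (49.6 CPM) and DUXA (6423 CPM), and below it in QARS (11.9 CPM). Androgenetic replicate 4 was the only one of its group with counts of MEG8 (2.93 CPM) and ENSBTAG00000014335 (0.0376 CPM, from 1 count), and was lowest in LOC101904579 (5.64 CPM). Androgenetic replicate 2 was far above the others in TLE1 (23.95 CPM). Androgenetic replicate 1 was highest in LOC100848634 (199 CPM) and alone in LETM2 (0.0439 CPM, from 1 count).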

How the results depend on the processing

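Against 288 higher and 173 lower calls, the fit with a replicate block and the fit with rows detected as a covariate gave 0 and 0 in edgeR (2523 and 3037 rows at an unadjusted p under 0.05), for lncRNA rows also 0 and 0. Same-numbered androgenetic and ICSI libraries had correlations of deviations of 0.02, 0.13, 0.11 and -0.08, and pairs with unlike numbers -0.21 to 0.23. So few pairs cannot settle whether equal numbers stand for a shared batch or donor, and the labels name none. With at least 5 CPM in 5 libraries 587 rows were higher (lncRNA 43), and with no filter 77 were lower. Without androgenetic replicate 6 and ICSI replicate 5 the calls were 492 and 293 (lncRNA 47 and 5), and rows without overlap 1211 above and 1901 below. Groups with fewer libraries separate more easily by chance, so these counts cannot be set against the 500 and 680 of the full groups. With DESeq2 size factors and all libraries, rows without overlap were 558 above and 558 below. DESeq2 called 1252 and 735 (lncRNA 122 and 20), and limma voom 431 and 445 (lncRNA 42 and 9). The share of higher among all calls was 62.5%, 72.8% with DESeq2 size factors and 49.2% with voom, and DESeq2 size factors moved the median of all rows to 0.13. Leaving out 1 library gave 0 to 585 higher and 0 to 492 lower calls (lncRNA 0 to 43 and 0 to 11). Named called genes kept their direction in every fit that tested them. Of 615 values with 1 library left out 341 lost the call, and of 439 under other settings 119 did. Named genes not called in the main comparison gained a call in 11 of 600 values with 1 library left out and in 22 of 429 under other settings. The cause was not tested.

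The synthetase median was -0.78 with the covariate and -1.24 to -1.01 with 1 library left out, that of histones 1.73 to 2.32, and that of septins -1.01 to -0.26, -0.27 with the stricter filter and -0.13 without both libraries. The MARCH median was -0.057 with 10 libraries, -0.37 with the replicate block, -0.031 with the covariate, -0.42 with voom and -0.23 to 0.25 with 1 library left out. The lncRNA median was 0.41 with the replicate block, 0.061 with voom and 0.72 to 0.91 with 1 library left out. The difference in rows detected was -3063 to -1414, in the share of the 20 highest rows 4.92 to 6.28 points, and the spread was 0.863 to 1.02 in androgenetic and 0.412 to 0.602 in ICSI libraries.

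Genes that changed sign were not called in the main comparison. SOX2 had 0.11 with DESeq2 size factors and with DESeq2, 0.023 with upper-quartile factors, 0.043 with no filter, 0.38 with the covariate, 0.18 without both libraries and -0.71 to 0.37 with 1 library left out. HIST1H2AJ had 0.046 with DESeq2 size factors, 0.047 with DESeq2, 0.040 with the stricter filter and -0.89 to 0.19. MEG8 had -2.48 with the replicate block, -0.29 with voom and -4.77 to 2.59. VARS had 0.26 with the replicate block, 0.62 with the covariate and -0.40 to 0.042. PYGO2 had 0.998 without both libraries and -1.95 to 0.79, USP29 -0.30 and QARS -0.035 with voom. With 1 library left out TLE1 had -4.19 to 0.014, CTGF -0.53 to 0.10, YARS -0.18 to 0.35, DUXA -0.055 to 3.57 and H4C13 (LOC528329) -0.19 to 1.29. On simulated counts the test recovered 7% of 4-fold changes, a share that need not hold for the measured rows. An uncalled gene may still differ by that much. Shares of counts by chromosome were not run.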
